A study of Mus musculus with 7 samples.

Results

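The gene desert contacts are the 575 pairs of restriction fragments that the deposited contact table assigns to its gene desert region, which the study captured as a negative control. They were taken by that region name alone, with no use of measured values, and are 575 of the 86767 pairs in 7 regions. The pairs join 25 forward and 23 reverse fragments, 48 of the 1464 fragments in the table, and every possible forward-reverse combination was present. The 6 other regions surround Oct4, Nanog, Sox2 and Klf4, which encode transcription factors of pluripotent cells, and Nestin and Olig1-Olig2, genes of neural progenitors. The assay, 5C or chromosome conformation capture carbon copy, was applied to mouse embryonic stem (ES) cells of the V6.5 line and to neural progenitors (NPCs) made from that line, with 2 libraries per cell type. The line is male, from the strain cross 129SvJae x C57BL/6. The ES cells had been expanded on inactivated mouse feeder cells with LIF and then passaged on gelatin to remove the feeders. The NPCs came from embryoid bodies kept for 4 days without LIF, followed by 5 to 7 days of selection in serum-free ITSFn medium and 2 to 4 days of growth with Fgf2. Both cell types were fixed with 1% formaldehyde, and the labels name no engineered allele in either. Because 1 cell line gave both, and the labels do not tie a library to a culture of its own, each p-value below rests on a spread between libraries that may be technical only.

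A gene desert is a long stretch of the genome without protein-coding genes. Such a region is used as a control in chromosome conformation studies because the contact frequency there is mostly set by how far apart the fragments lie along the DNA, with fewer of the loops that join promoters to enhancers or bring together sites bound by CTCF and cohesin. In 5C, crosslinked chromatin is cut, here with HindIII, ligated, and read with primers at the fragment ends: a forward primer is joined to a reverse primer only where their fragments were ligated to each other. The reads of a pair therefore depend on the contact, on the distance, and on how well each of the pair of fragments is cut, ligated, primed and amplified. The table names the gene desert fragments and gives the distance between them but no chromosome or position, so the gene content of the region, its CTCF and Smc1 sites and its sequence were not analysed here.

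The distances place the 48 fragments on 1 line of 195.5 kb, with a misfit of at most 0.537 bp. Positions below are in kb from REV013, the fragment at the low end. Pair distances ran from 0.595 to 195.5 kb with a median of 60.6 kb. Coverage by fragments was uneven: no primer lay in 19.54 kb between FOR057 and FOR061, in 17.06 kb between REV025 and FOR030, or in 14.31 kb between FOR041 and FOR043. Because the desert is short, each comparison with the other regions used their 26147 pairs of at most 195.5 kb.

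Counted over all pairs, ES replicate 1 had 10742380 reads and ES replicate 2 had 8236666, whereas NPC replicate 1 had 15899829 and NPC replicate 2 had 42673906. The gene desert took 97355, 35850, 188958 and 474915 of these, in the same order. Its median pair had 34, 27, 54 and 70 reads, and its highest pair 6849, 1191, 19189 and 52467. Few pairs carried much of the signal, since the 10 highest pairs held 39.6%, 22.2%, 41.9% and 52.1% of the desert reads. Pairs without a read numbered 30 and 40 in ES and 3 and 7 in NPC, or 5.22%, 6.96%, 0.52% and 1.22% of the desert pairs. In the other regions at the same distances the order was the opposite, with 2.57% and 3.06% of pairs without a read in ES and 3.42% and 4.18% in NPC. Across desert pairs, log2 counts of the 2 ES libraries had a Pearson r of 0.944 and those of the 2 NPC libraries 0.903, while ES-NPC library pairs had r between 0.559 and 0.706. These pairs share fragments and distance, so the values are descriptions.

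Of all reads at distances up to 195.5 kb, the desert held 1.17% in ES replicate 1 (95% Wilson interval 1.163 to 1.178), 0.66% in ES replicate 2 (0.6535 to 0.6671), 1.47% in NPC replicate 1 (1.462 to 1.475) and 1.33% in NPC replicate 2 (1.33 to 1.338), against 2.15% of the pairs. The intervals cover counting error only, since amplified reads are not independent molecules. Both NPC libraries lay above both ES libraries, and ES replicate 2 stood far below ES replicate 1. The mean share was 1.59-fold higher in NPC (log2 difference 0.67, SD 0.42, two-sided exact permutation p = 0.333, the smallest that 2 against 2 libraries can give). Without the 3 pairs with most reads in the Oct4 region, which enter the total, the shares were 1.68%, 1.41%, 1.88% and 1.89% and the log2 difference 0.29. Without ES replicate 2 the log2 difference was 0.26.

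Contact level went down with distance in all 4 libraries, and the slope was steeper in both NPC libraries than in either ES library. After scaling to a common depth, the median pair under 10 kb had 301.0, 180.0, 221.0 and 145.0 scaled reads in ES replicates 1 and 2 and NPC replicates 1 and 2. Between 10 and 20 kb the medians were 61.5, 55.0, 106.0 and 100.0, with both NPC libraries above both ES libraries. Between 160 and 180 kb they were 9.69, 11.5, 7.84 and 2.42, with both ES libraries above both NPC libraries. The slope of log10(scaled reads + 1) on log10 distance, taken from 10 kb up over 508 desert pairs, was -0.58, -0.51, -0.89 and -0.93. NPC minus ES was -0.36, with SDs between libraries of 0.046 in ES and 0.029 in NPC (two-sided exact permutation p = 0.333, again the smallest possible). In the 6 other regions at these distances the same difference was between -0.01 and -0.19. The size depended on the fragments: with a term for each fragment the desert slopes were -0.64, -0.56, -0.82 and -0.78 and the difference -0.20, inside the range of 0.02 to -0.23 over the other regions. Using pairs of all distances it was -0.13.

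**Figure D1:**
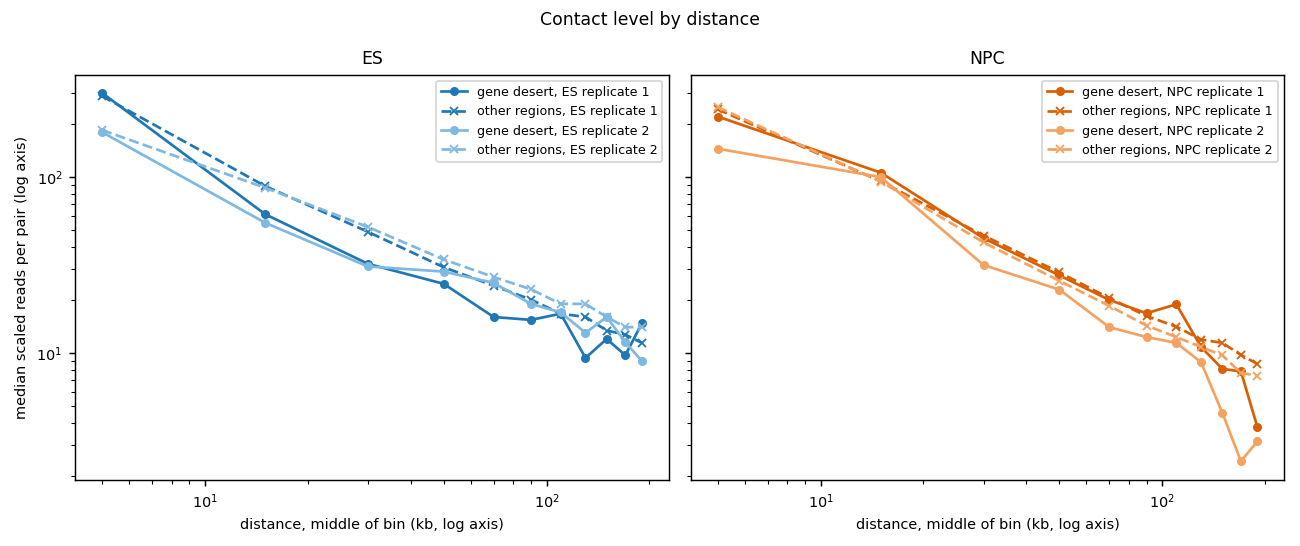
Median scaled reads per pair (log axis) against distance in kb (log axis), for ES libraries on the left and NPC libraries on the right; solid lines with circles are gene desert pairs and dashed lines with crosses are pairs of the 6 other regions. In ES the desert lies below the other regions from 10 to 100 kb, and in NPC replicate 1 the desert has a median of 106.0 against 94.6 in the other regions between 10 and 20 kb.

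With distance matched in 20 kb bins, the mean log2(scaled reads + 1) of the desert was 4.59 and 4.55 in ES and 5.19 and 4.71 in NPC. The other regions together stood at 5.17 and 5.15 in ES and 5.11 and 4.98 in NPC. The desert thus lay below the other regions by 0.58 and 0.60 in the ES libraries, above them by 0.09 in NPC replicate 1 and below them by 0.27 in NPC replicate 2. On this log2 scale the gap to the other regions moved by 0.50 between cell types (SD 0.18, two-sided exact permutation p = 0.333). Within the regions, the desert's own level was 0.38 higher in NPC than in ES, while the Nanog region was 0.75 lower and the other 5 regions lay between -0.21 and 0.08. The desert level includes the 71 pairs of FOR018, REV048 and REV056, fragments with very few ES reads that are described below. How much of the 0.38 and of the 0.50 those pairs carry was not computed. As a control, the desert was not the region with the lowest level: Sox2 had 4.27 and 4.41 in ES and 4.39 and 4.27 in NPC, below the desert in each of the 4 libraries. All regions were read in the same 4 libraries, and no test was made between regions.

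Gene desert pairs differed between the cell types more often than pairs of the other regions, and mostly with more reads in NPC. Of the 575 pairs, 498 averaged 10 reads or more per library and were tested by edgeR's quasi-likelihood test, with Benjamini-Hochberg adjustment over all 46967 pairs tested in the table. Among them 68 were higher in NPC at an adjusted p under 0.05, or 13.7%, against 4.90% of all pairs tested, and 7 were higher in ES, or 1.41%, against 2.33%. At the same distances, the other regions gave 5.52% higher in NPC and 3.24% higher in ES, and the region nearest to the desert, Olig1-Olig2, gave 7.99% higher in NPC. The median log2 fold change over tested desert pairs was 0.28, against -0.01 over tested pairs of the other regions up to 195.5 kb. The spread over pairs was taken on another measure, the NPC minus ES difference in mean log2(scaled reads + 1). Its SD was 2.03, against 1.56 to 1.72 in the other regions. Pairs sharing a fragment are not independent, and the difference between regions was not tested.

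The number of calls depended on single libraries and on the scaling, in the desert and in the whole table. Without ES replicate 1, 12 desert pairs were higher in NPC and 0 in ES, against 275 and 20 of 46760 pairs in the table. Without ES replicate 2 the desert had 2 and 1, against 46 and 17 of 47578. Without NPC replicate 1 it had 166 and 150, against 11857 and 11496 of 46919. At an unadjusted edgeR p under 0.05 the desert counts with all 4 libraries were 153 and 53. Such unadjusted counts were not taken over the whole table, so they cannot set the desert apart. With scaling by library totals in place of trimmed means, the median log2 fold change of all tested pairs moved from 0.12 to -0.28. That of desert pairs moved to -0.14. Under this scaling 38 desert pairs were higher in NPC and 8 in ES, against 1094 and 1158 of 46967 pairs in the table.

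**Figure D2:**
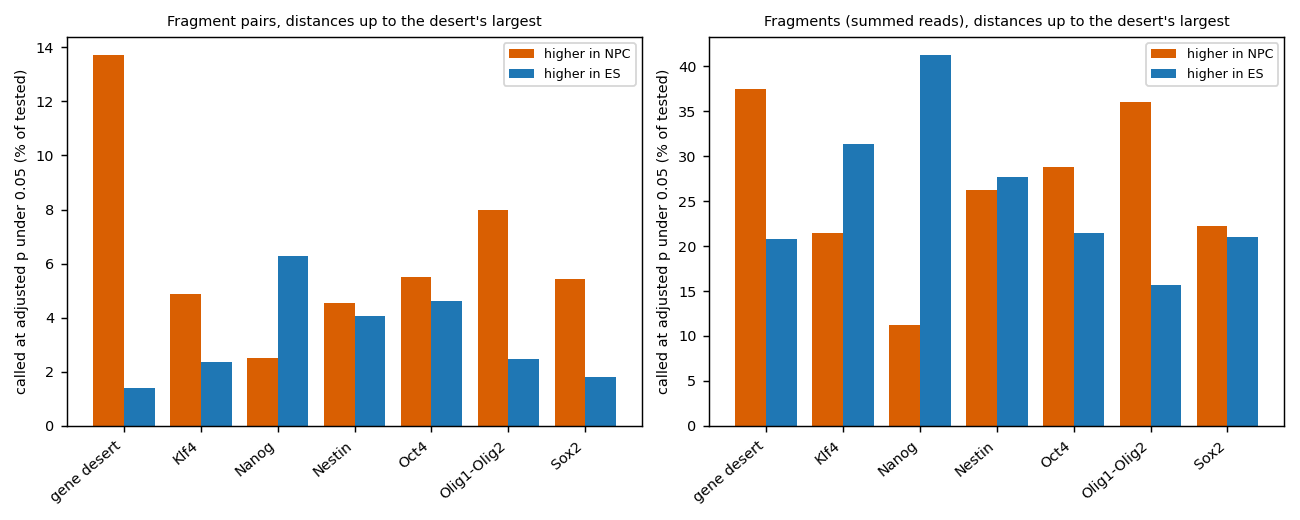
Share of tested fragment pairs (left) and of fragments by summed reads (right) called at an adjusted p under 0.05 (y axes, %) in each of the 7 regions (x axes), for distances up to 195.5 kb; orange bars are higher in NPC and blue bars higher in ES. The gene desert has 13.7% of pairs higher in NPC and 1.41% higher in ES.

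Desert pairs called higher in NPC were nearer than those called higher in ES. Their median distance was 33.1 kb and their median log2 fold change 3.37, whereas the 7 pairs higher in ES had a median distance of 105.0 kb and a median log2 fold change of -2.92. The share of tested desert pairs higher in NPC was 21.3% up to 20 kb, 17.9% from 20 to 50 kb, 10.7% from 50 to 100 kb and 6.5% beyond 100 kb. In the other regions it was 8.75%, 6.54%, 5.16% and 4.16%, lower at each distance. There the share higher in ES fell too, from 4.5% up to 20 kb to 2.49% beyond 100 kb. In the desert it was 0.926% and 3.25% at these distances, from 1 and 4 pairs. Nearer pairs had more reads, and the fall with distance was not separated from the number of reads. By scaled reads, both NPC libraries lay above both ES libraries in 245 of the 575 pairs (42.6%, against 19.2% of all pairs in the table and 28.4% of other pairs up to 195.5 kb). Both ES libraries lay above both NPC libraries in 172 pairs (29.9%, against 34.3% and 36.9%). All 68 and all 7 called pairs were among those without overlap.

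The called pairs with the largest fitted change toward NPC had no read in either ES library. FOR037-REV048, 47.4 kb apart, had 0, 0, 161 and 226 reads in ES replicates 1 and 2 and NPC replicates 1 and 2, at least 30.3-fold higher in NPC with a floor of 3 reads per ES library (edgeR adjusted p = 0.0225). FOR018-REV050, 117.0 kb apart, had 0, 0, 56 and 52 reads, at least 9.01-fold higher (edgeR adjusted p = 0.0366). FOR018-REV044, 96.2 kb apart, had 0, 0, 33 and 72 reads, at least 7.66-fold higher (edgeR adjusted p = 0.0379). Each of these 3 pairs contains FOR018 or REV048. The other pair named by the same rule, FOR041-REV056 at 60.6 kb, had 0, 0, 30 and 42 reads, at least 5.63-fold higher (edgeR adjusted p = 0.049). In all, 21 desert pairs had no read in both ES libraries, each of them with FOR018, REV048 or REV056. Of these, 5 were called, while no pair was without reads in both NPC libraries. Pairs without ES reads passed the filter on mean reads through their NPC reads alone. The direction of their calls was thus fixed by the filter, and their p-values are descriptions only.

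Among the 7 called pairs, the 4 with the largest change toward ES all contained REV019, at 25.48 kb. FOR049-REV019, 110.0 kb apart, had 58, 58, 5 and 4 reads, a log2 fold change of -4.68 ± 0.83 (SE, edgeR adjusted p = 0.0285). FOR065-REV019, 161.0 kb apart, had 50, 23, 5 and 3 reads (log2 fold change -4.02 ± 0.97, edgeR adjusted p = 0.047). The NPC counts of these distant pairs were under 6 reads although the NPC libraries were the deeper ones. At shorter range, FOR016-REV019, 15.8 kb apart, had 357, 226, 61 and 40 reads (-3.41 ± 0.65, edgeR adjusted p = 0.0312). FOR014-REV019, 21.5 kb apart, had 309, 179, 68 and 51 reads (-2.92 ± 0.61, edgeR adjusted p = 0.0365). The other 3 pairs higher in ES were FOR016-REV036, FOR065-REV036 and FOR016-REV064, with log2 fold changes of -2.44, -2.42 and -2.78, and were named after their values were seen.

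**Figure D3:**
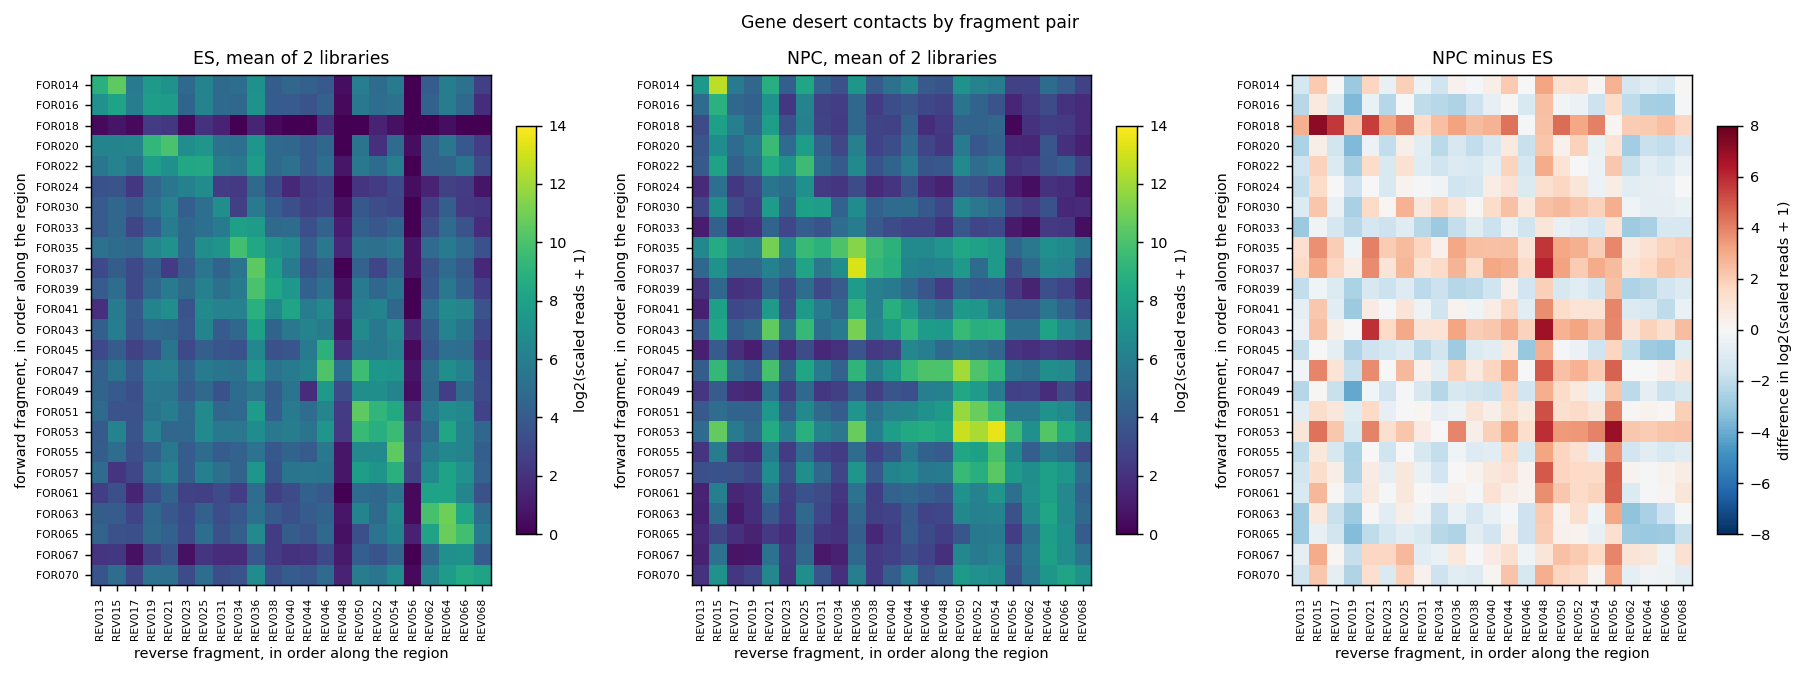
Each cell is 1 gene desert pair, with forward fragments (y axis) and reverse fragments (x axis) in order along the region; the first and second maps show mean log2(scaled reads + 1) of the 2 ES and 2 NPC libraries, and the third the difference NPC minus ES. The row of FOR018 and the columns of REV048 and REV056 are near 0 in ES, and differences run along whole rows and columns.

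The changes ran along fragments more than along single pairs, so reads were summed for each fragment over its pairs of at most 195.5 kb and tested by edgeR over all 1464 fragments. By this measure 18 of the 48 desert fragments (8 forward, 10 reverse) were higher in NPC, or 37.5%, against 25.6% of all fragments, and 10 (6 forward, 4 reverse) were higher in ES, or 20.8%, against 25.1%. Olig1-Olig2 was close to the desert here, with 36.0% of its fragments higher in NPC and 15.7% higher in ES. By scaled sums, both NPC libraries lay above both ES libraries in 22 desert fragments, against 38.7% of all fragments, and below both in 14, against 41.3%. Over the desert fragments the SD of the log2 fold change was 1.81, against 1.25 to 1.34 within the other regions. Terms for the fragments accounted for 84.6% of the variance (adjusted R2) of the NPC minus ES difference across desert pairs, against 71.4% to 78.0% in the other regions. They accounted for 16.5% of the difference between the 2 ES libraries (other regions 19.8% to 38.0%) and 61.7% of that between the 2 NPC libraries (38.2% to 49.3%). Fragment-wide differences were therefore also present between the replicate NPC libraries. With each fragment's median effect in each library entered as an offset in the pair test, 0 of all 46967 pairs in the table passed in either direction by edgeR. The count for the desert therefore says nothing particular about it. At an unadjusted edgeR p under 0.05, 17 desert pairs were higher in NPC and 11 higher in ES, with no count over the whole table to set beside them.

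Among all 1464 fragments, 7 had a log2 fold change over 4, and 3 of them lay in the desert. REV056, at 157.31 kb, had 54, 27, 2242 and 5589 summed reads in ES replicates 1 and 2 and NPC replicates 1 and 2, the largest change of any fragment in the table (log2 fold change 5.16 ± 0.65, edgeR adjusted p = 2.18e-06). FOR018, at 23.15 kb, had 53, 19, 2094 and 2081 reads, the next largest (4.74 ± 0.73, edgeR adjusted p = 1.82e-05). REV048, at 133.11 kb, had 204, 42, 5238 and 6690 reads (4.52 ± 0.58, edgeR adjusted p = 2.67e-06). Each of the 3 fragments had at most 204 reads in an ES library and at least 2081 in an NPC library. They do not adjoin each other, and they include both primer types. FOR053-REV056, 9.1 kb apart and named after its values were seen, had 8, 6, 1257 and 3168 reads. The 3 fragments entered 71 pairs. Such pairs reached the mean of 10 reads through their NPC reads, so no share of calls is given for them. Without these pairs, 45 of 458 tested pairs were higher in NPC, or 9.83%, still above the 5.52% of the other regions, and 7 were higher in ES. The cause of their low reads in ES was not tested.

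Several fragments with many reads in both cell types also rose in NPC. FOR053, at 148.21 kb, had 6298, 2441, 52032 and 129936 reads (log2 fold change 3.01 ± 0.35, edgeR adjusted p = 1.05e-06). It entered 27.5% and 27.4% of all desert reads in the NPC libraries, and 13 of its 23 pairs were called higher in NPC, the most of any desert fragment. FOR043, at 110.98 kb, had 1683, 1128, 13578 and 34294 reads (2.59 ± 0.34) with 11 pairs called. FOR047 and FOR035, with log2 fold changes of 1.52 and 1.92, had 9 called pairs each. REV036, at 81.28 kb, had 10502, 4458, 23996 and 95929 reads and was a mixed case: its sum was higher in NPC (1.5 ± 0.34) with 3 pairs called higher in NPC and 2 called higher in ES. The largest part of the NPC replicate 2 sum was FOR037-REV036, 4.44 kb apart, with 2599, 1191, 10821 and 52467 reads, the highest count of the desert.

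Of the 10 fragments higher in ES, 4 lay together between 181.78 and 186.2 kb (REV062, FOR063, REV064 and FOR065). FOR065, at 186.2 kb, had 10702, 1832, 1811 and 1385 reads (log2 fold change -2.87 ± 0.48, edgeR adjusted p = 4.94e-05). ES replicate 1 stood well above the other 3 libraries there. Much of that sum was its contact with the next fragment: FOR065-REV064, 1.89 kb apart, had 6849, 684, 636 and 510 reads. REV019, at 25.48 kb, had 3386, 1798, 1180 and 969 reads (-2.42 ± 0.49, edgeR adjusted p = 0.000351), with both ES libraries above both NPC libraries. The other 8 fragments higher in ES were FOR063, FOR039, FOR033, FOR045, REV062, REV013, FOR020 and REV064, with log2 fold changes from -2.25 to -1.13. FOR016, whose 3 called pairs were all higher in ES, had a log2 fold change of -0.95 and was not called (edgeR adjusted p = 0.0713).

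When sums were restricted to pairs from 10 kb up, a setting added after seeing the data, 19 desert fragments were higher in NPC and 6 in ES, against 388 and 370 of all 1464 fragments. Of the original calls, 16 of 18 toward NPC and 4 of 10 toward ES were called again. None of the 4 fragments between 181.78 and 186.2 kb was called again. FOR065 then had a log2 fold change of -1.18 (edgeR adjusted p = 0.0682), FOR063 -0.33 (edgeR adjusted p = 0.616), REV062 -0.27 (edgeR adjusted p = 0.665) and REV064 the opposite sign at 0.33 (edgeR adjusted p = 0.39). With pairs of all distances up to 195.5 kb, leaving out ES replicate 1 left 1 desert fragment higher in ES, against 124 of all 1464, and leaving out ES replicate 2 left 6, against 131.

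**Figure D4:**
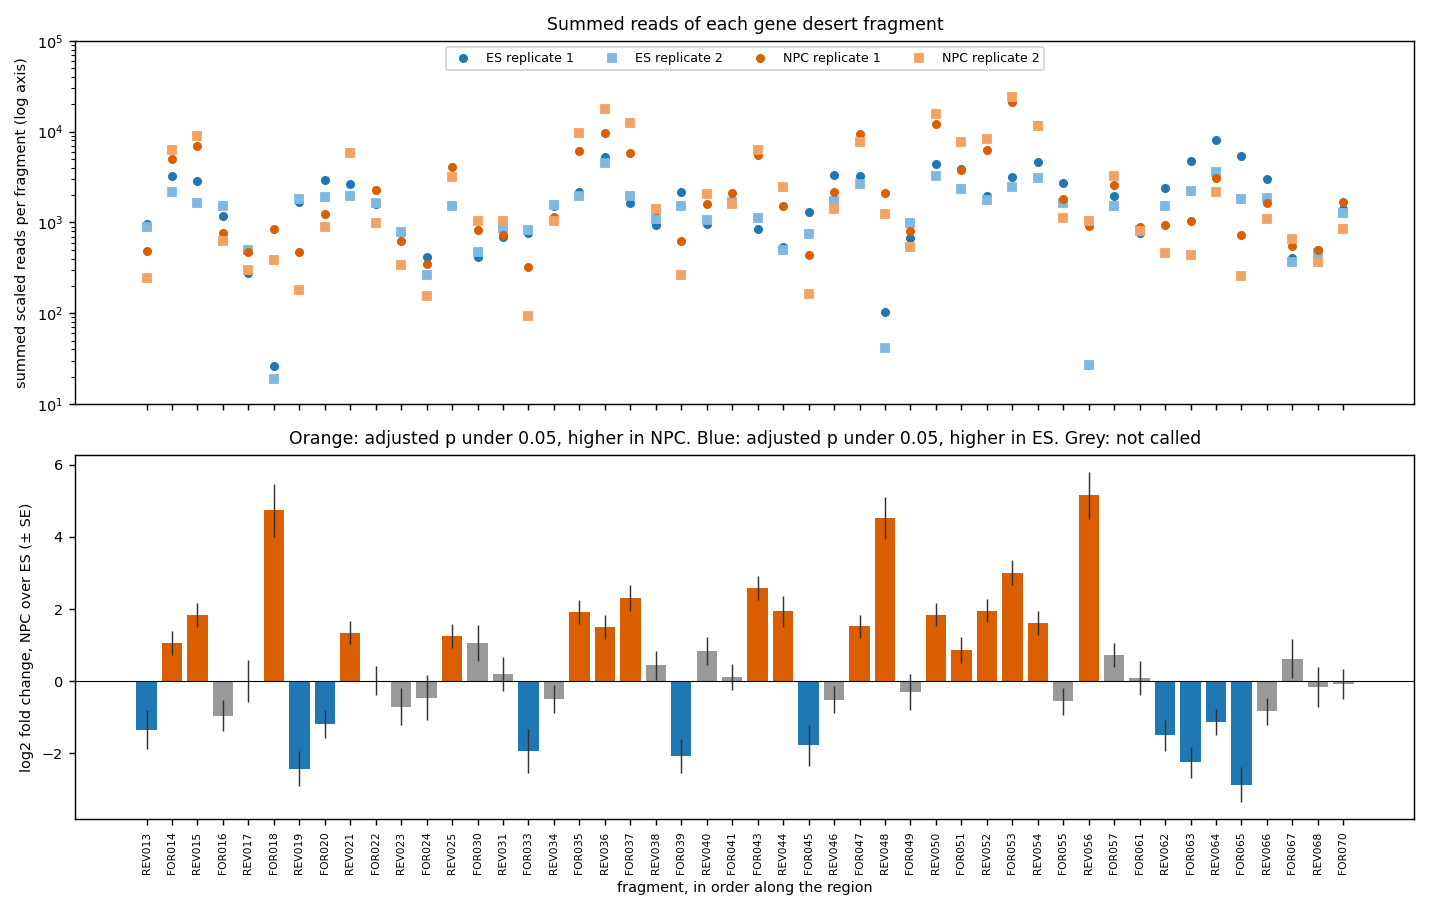
Top, summed scaled reads (log axis) of each of the 48 gene desert fragments in order along the region, 1 point per library; bottom, log2 fold change NPC over ES with its SE, orange where higher in NPC, blue where higher in ES and grey where not called. REV056, FOR018 and REV048 have the tallest bars, at 5.16, 4.74 and 4.52.

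The change of a pair followed the changes of both its fragments, which is partly built in because each pair enters both sums. Of 77 tested pairs that joined a pair of fragments called higher in NPC, 49 were called higher in NPC and the median log2 fold change was 3.03. Of 80 tested pairs that joined a fragment higher in NPC to one higher in ES, 1 was called higher in NPC and 2 in ES, with a median of 0.00. Of 21 tested pairs of fragments both higher in ES, 1 was called, with a median of -2.69. Of 78 tested pairs of fragments with no call, none was called and the median was -0.71.

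The directions of neighbouring fragments were counted in the desert only, so they do not set it apart from other regions. Of 47 neighbouring fragments along the line, a median of 2.93 kb apart, 17 neighbours were both called, 13 of them in the same direction and 4 in opposite directions. FOR018, higher in NPC by 4.74, lay 2.33 kb from REV019, lower by 2.42. The other opposite neighbours were REV013 with FOR014, 3.98 kb apart, FOR020 with REV021, 1.51 kb apart, and REV044 with FOR045, 7.02 kb apart. Neighbours of opposite primer type share the reads of their joint pair, so equal directions are partly built in and opposite ones are not.

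The fragment effects themselves, taken as the median deviation of a fragment's pairs from the distance curve, correlated more closely within a cell type than between the cell types. Across the 48 fragments their Pearson r was 0.977 between the ES libraries and 0.938 between the NPC libraries, and 0.440 to 0.606 between cell types. Without REV056, FOR018 and REV048 the values between cell types were 0.529 to 0.718. Their SD was 1.45 and 1.37 on the log2 scale in ES and 1.23 and 1.83 in NPC. Leaving out the same 3 fragments gave 0.92 and 0.80 in ES and 1.24 and 1.85 in NPC. Because these 3 were picked for a rise from very low ES reads, leaving them out was bound to lower the ES values. With all 48 fragments, NPC replicate 1 had a lower SD than either ES library and NPC replicate 2 a higher one. Which cell type was more uneven is therefore not settled.

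At distances over 50 kb, pairs were ranked by the geometric mean of scaled reads over all 4 libraries, each with equal weight. Many reads in either cell type can thus raise the rank of a pair. FOR053-REV036, 66.9 kb apart, had 159, 116, 1910 and 9711 reads (log2 fold change 4.10 ± 0.69, edgeR adjusted p = 0.027). FOR053-REV015, 141.0 kb apart, had 162, 55, 2643 and 6024 reads (4.26 ± 0.63, edgeR adjusted p = 0.0239). FOR047-REV021, 102.0 kb apart, had 82, 86, 1710 and 3517 reads (3.78, edgeR adjusted p = 0.0239). These pairs were far higher in both NPC libraries than in either ES library. FOR047-REV036, 50.4 kb apart, had 260, 144, 1190 and 1780 reads and missed the threshold (1.85, edgeR adjusted p = 0.0583). The order within a cell type was different: FOR020-REV036 had 160.0 and 161.0 scaled reads in ES, above the 106.0 and 116.0 of FOR053-REV036.

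Once distance and fragment effects were removed, few single contacts stood out, in the desert as in the whole table. The residual of a pair is its log2(reads + 1) minus the distance curve and the effects of both fragments, and limma tested it over all 46967 pairs. In the desert 2 of 498 pairs were higher in NPC, against 0.637% of all pairs tested, and 0 were higher in ES, against 0.0426%. Counts this small do not set the desert apart. At an unadjusted p under 0.05 the limma counts in the desert were 29 and 14, with no count over the whole table to set beside them. FOR043-REV021, 81.1 kb apart, had 49, 20, 2436 and 6365 reads and residuals of -0.71, -1.48, 2.39 and 1.85 (difference 3.21 ± 0.37, limma adjusted p = 0.0353). FOR053-REV036 had residuals of -0.97, -0.48, 1.41 and 2.04 (difference 2.45 ± 0.33, limma adjusted p = 0.0426). In both pairs the 2 ES residuals were below 0 and the 2 NPC residuals above 1. Without ES replicate 2, no pair of the whole table passed. With the authors' own ratio in place of the residual, 1 pair of the table was higher in NPC and 2 in ES, none of them in the desert.

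Residuals had a narrower spread in the desert than in the other regions. Their SD over desert pairs was 0.82, 0.80, 0.78 and 0.79, against 0.96, 0.89, 1.14 and 1.22 over the other regions up to 195.5 kb. The curve and fragment effects were fitted in each region over all its distances, which in the desert are short ones only. With fewer pairs per fragment, the desert fit also follows its own pairs more closely. The narrower spread and the shares below can thus be partly built in. A residual of at least 1 in all 4 libraries was found in 2 desert pairs, or 0.348%, against 1.81% of all pairs in the table. Those pairs were FOR037-REV036, with residuals of 1.94, 1.78, 2.64 and 2.52, and FOR014-REV015, 2.76 kb apart, with 1.29, 1.11, 1.23 and 1.34 from 3893, 818, 8831 and 28166 reads. A residual of at least 1 in both ES libraries was found in 16 desert pairs (2.78%, against 3.97% of all pairs) and in both NPC libraries in 14 (2.43%, against 8.85%). Among tested pairs, the next highest mean residuals were those of FOR043-REV036, 29.7 kb apart, with 397, 233, 3319 and 9760 reads, and FOR045-REV046, 3.93 kb apart, with 1643, 237, 180 and 139 reads. The lowest among tested pairs were those of FOR057-REV015, 155.0 kb apart, with 6, 3, 0 and 474 reads, and FOR049-REV044, 16.2 kb apart, with 2, 4, 7 and 80 reads. In both of the low pairs NPC replicate 2 alone had more than 7 reads.

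The authors' deposited table also gives a p-value per pair and library against their own predicted signal. At p under 0.05 the desert held 22, 11, 16 and 19 pairs in ES replicates 1 and 2 and NPC replicates 1 and 2, or 3.83%, 1.91%, 2.78% and 3.30% in the authors' deposited table. Over all regions the authors' deposited table gave 5.52%, 5.91%, 4.52% and 4.50%, and over the other regions up to 195.5 kb 4.82%, 4.15%, 2.93% and 4.63%. At that threshold the desert was below both in each library. At p under 0.01 the authors' deposited table gave 1.57%, 0.696%, 0.87% and 1.57% of desert pairs, against 1.60%, 1.04%, 0.623% and 1.01% of the other pairs up to 195.5 kb, so the desert was above them in both NPC libraries. Over all regions the authors' deposited table gave 1.55%, 1.68%, 1.33% and 1.21% at p under 0.01. These desert shares rest on at most 9 pairs per library. By the authors' deposited table, both ES libraries shared 5 desert pairs (0.87%, against 1.69% of all pairs) and both NPC libraries shared 15 (2.61%, against 1.43%). All 4 libraries shared 2 desert pairs by the authors' deposited table, or 0.348% against 0.375% of all pairs.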

How the data were processed

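The authors deposited 1 table of 5C contacts for all regions, with raw read counts per fragment pair in each of 4 libraries, a predicted signal, a ratio of observed to predicted reads and a p-value, per the file headers. Reads were aligned with Bowtie, per the submitters' processing notes; for the predicted signal, the authors' model was not given in the sources used here. The deposited ratio equalled counts over predicted signal within 0.001, with 0 reads entered as 0.25. Of the per-library columns, 8 were not used.

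From the deposited counts, pairs and fragments were tested with edgeR 4.0.16 (quasi-likelihood, trimmed-mean scaling, mean of at least 10 reads) in R 4.3.3, adjusted by Benjamini-Hochberg over the whole table at 0.05. Fragment sums used pairs up to 195.5 kb. Residuals were log2(count + 1) minus a lowess curve on log10 distance (span 0.3) and median fragment effects (5 rounds), tested with limma 3.58.1. Library values were compared by exact permutation. The scripts were tested on simulated data. There the pair test found 4 of 100 changes of 4-fold and 43 of 100 changes of 16-fold. The fragment test found 92 of 100 and 100 of 100. A pair without a call may therefore still differ. Shares have 95% Wilson intervals. Named pairs were the 4 called pairs of largest fold change in each direction, the 4 highest beyond 50 kb, and the 4 highest and 2 lowest residuals. Named fragments were the 3 with most called pairs in each direction and the 3 highest and 3 lowest sums. The region, the lists and the tests were chosen with earlier results of these data known. Alternatives included DESeq2 1.42.0, other scalings, filters and offsets, and leaving out each library. The ChIP-seq peak lists were not used, because the contact table gives no chromosome positions.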

Additional observations from a re-analysis of the deposited data

How the results depend on the processing

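With 68 desert pairs higher in NPC as reported, the count under other settings was 38 with library totals, 127 with no count filter, 119 with DESeq2 and 45 without the pairs of FOR018, REV048 and REV056; leaving out each library gave 2 to 166. The count higher in ES, 7 as reported, was 20 with no filter, 27 at a mean of at least 50 reads, 30 with DESeq2, 28 with limma, 20 with reads thinned to the smallest library, and 0 to 150 leaving out each library. A fragment-wide offset from summed reads gave 1 desert pair higher in NPC and 47 in ES, against 150 and 2325 of 46967 in the table. It moved the all-pair median of the log2 fold change to -0.87. An offset from median primer effects gave 0 and 0, in the desert and in the table. Fragments higher in ES numbered 6 from 10 kb up and 1 to 15 leaving out each library; those higher in NPC, 14 to 21. Residual calls numbered 110 with distance alone, 4 at a pseudocount of 5, 0 with the authors' ratio and 0 to 43 leaving out each library. The cause of these shifts was not tested.

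With the replicate block there were 22 desert pairs higher in ES and 75 in NPC, against 1664 and 2917 of 46967 in the table. Deviations of same-numbered libraries correlated at -0.14 over all pairs and -0.04 in the desert, so the numbers are not shown to pair the samples. The crossed replicate block gave 88 desert pairs higher in NPC and 13 in ES, against 3572 and 1603 in the table. It gave 18 and 10 desert fragments, against 405 and 400 of 1464. Its residual calls in the desert were 5 and 0, against 744 and 111.

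Direction changed under the summed fragment-wide offset for FOR014-REV015 (-0.58), FOR037-REV036 (-0.69), FOR043-REV036 (-1.25), FOR047-REV036 (-1.67), FOR049-REV044 (-0.03), FOR053-REV015 (-0.98), FOR053-REV036 (-1.21) and FOR065-REV019 (0.36), and under the median-effect offset for FOR014-REV015 (-0.32). REV017, among the lowest sums, moved from 0.01 to -0.20 with library totals and -0.04 from 10 kb up, and ranged from -0.35 to 0.51 leaving out each library; FOR024 (-0.45) ranged from -1.13 to 0.02. Settings for DESeq2 size factors and short-range scaling changed no count by over 1.5 times. Thinning, the 10 kb sums, the median-effect offset, the crossed block and the pairs left out by fragment were chosen after seeing the data. With 2 libraries per cell type, no comparison of single library values can reach p under 0.333, and pairs with few reads were seldom testable.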

Other observations

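FOR024, FOR018 and REV017 had the lowest summed scaled reads of the 48 gene desert fragments. All 48 fragments had enough reads to be tested, and 12 of them had no called pair.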
